A study of Mus musculus with 32 samples.

Results

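The proteasome genes were followed through the first cell divisions of the mouse embryo, with and without transient inhibition of histone acetyltransferases or histone deacetylases. Members were all protein-coding genes whose symbol is Psma, Psmb, Psmc, Psmd, Psme, Psmf or Psmg followed by a number, taken by name and not by any measured value. The rule found 50 members among the 55385 genes of each RNA-seq library, 21897 of which are protein-coding, and it left out 4 pseudogenes of the same symbols. Of the 50 members, 49 have a known role in the proteasome, and Psmc3ip, a meiotic recombination factor named after its binding to PSMC3, is no subunit. The 49 comprise 7 subunits of the alpha ring, 4 structural and 3 catalytic subunits of the beta ring, 6 ATPases and 11 non-ATPases of the regulatory particle, 7 assembly chaperones, 6 activators or inhibitors, and 5 tissue-restricted or immune subunits.

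Total RNA was sequenced in 16 libraries from 8 groups of 2. All embryos were wild type, made by in vitro fertilization of B6D2F1/J eggs with B6D2F1/J sperm from parents of 6 to 8 weeks, and cultured in KSOM medium. In the A-485 experiment, embryos received 10 µM A-485, an inhibitor of the catalytic activity of CBP and p300, or DMSO from 4 to 20 hours post insemination (hpi), and were taken as zygotes, early 2-cell or late 2-cell embryos. The late 2-cell embryos of that experiment were therefore collected after A-485 had been washed out. The same window is given for zygotes, without an hour of collection. The paper places early 2-cell embryos at 20 hpi in its test with DRB, so zygotes were probably taken earlier, after less exposure. In the TSA experiment, embryos received 50 nM trichostatin A (TSA), an inhibitor of histone deacetylases, or DMSO from 8 to 28 hpi, and were taken as late 2-cell embryos. ATAC-seq peak lists were used for A-485 and DMSO embryos of the late 1-cell stage and the early 2-cell stage. Nothing in the labels says that the 2 libraries of a group came from separate fertilizations, so p-values measure only the spread between these libraries, which may be technical.

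Library totals ranged from 13206163 to 32585987 expected counts, with a median of 22730518. Members took between 0.213% and 0.344% of the counts, and 48 of them had 20 or more counts in some library. Markers of the oocyte and early embryo summed to between 326 and 2718 TPM, the length-scaled abundance in a library, and 6 cumulus cell markers to at most 1.76 TPM. The 5 markers of the 2-cell embryo (Zscan4c, Zscan4d, Tcstv3, Zfp352 and Tdpoz4) summed to 299 and 268 TPM in the early 2-cell DMSO libraries and to 4.76 and 4.53 TPM with A-485. At late 2-cell they summed to 187 and 167 TPM in DMSO and 28.1 and 23.1 TPM after A-485, and to 90.9 and 100.5 TPM in the DMSO libraries of the TSA experiment and 206 and 174 TPM with TSA. Messages encoded by the mitochondrial genome took 0.795% to 1.06% of the counts in zygotes, 2.24% to 2.71% in 2-cell embryos without an inhibitor or in early 2-cell embryos with A-485, 5.35% and 5.43% in the late 2-cell A-485 libraries and 3.66% and 3.72% in the TSA libraries. Their part in the results was not tested. Where a comparison was refitted with libraries scaled to these messages, totals of called members that moved by over 1.5 times are given both ways. Counts within a role, overlaps between lists and percentages over all genes are from the main scaling.

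The 26S proteasome degrades proteins tagged with ubiquitin. Its 20S core particle is a barrel of alpha rings, which gate the entry, and beta rings, which hold the cutting sites. The 19S regulatory particle binds the ubiquitin chain, removes it and unfolds the substrate with a ring of ATPases. Other caps, such as the PA28 complexes and PA200, can open the core without ubiquitin, and immune subunits can replace the catalytic ones. After fertilization the embryo clears much of the protein and RNA stored by the oocyte while it begins to transcribe its own genome.

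The promoters of 6 members on which the results below turn are shown as the 250 bases before the annotated transcript start, from RefSeq on GRCm38.p6. They belong to members among those that rose most at the late 2-cell stage and fell under both inhibitors (Psma3, Psmb5, Psmd14), that fell already in early 2-cell embryos with A-485 (Psmd12), or that did not follow the other subunits (Psmb3, Psme4). Capitals mark matches, on either strand, to the CCAAT box (CCAAT), the core of the ETS motif (CCGGAAG) and the core of the antioxidant response element (TGACNNNGC), which NRF factors bind in proteasome promoters. Their positions are Psma3 (chr12:70974373-70974622, plus strand), Psmb5 (chr14:54617996-54618245, minus strand), Psmd14 (chr2:61711444-61711693, plus strand), Psmd12 (chr11:107479278-107479527, plus strand), Psmb3 (chr11:97703184-97703433, plus strand) and Psme4 (chr11:30771525-30771774, plus strand).
Psma3: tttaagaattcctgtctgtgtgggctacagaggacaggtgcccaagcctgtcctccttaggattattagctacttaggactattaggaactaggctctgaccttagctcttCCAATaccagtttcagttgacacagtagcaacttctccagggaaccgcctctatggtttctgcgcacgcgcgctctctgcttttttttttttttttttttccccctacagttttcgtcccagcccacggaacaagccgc
Psmb5: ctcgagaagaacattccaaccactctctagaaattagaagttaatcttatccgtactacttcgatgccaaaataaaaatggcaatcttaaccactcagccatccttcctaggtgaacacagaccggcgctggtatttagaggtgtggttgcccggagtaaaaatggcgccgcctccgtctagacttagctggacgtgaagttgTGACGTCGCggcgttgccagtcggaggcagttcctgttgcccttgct
Psmd14: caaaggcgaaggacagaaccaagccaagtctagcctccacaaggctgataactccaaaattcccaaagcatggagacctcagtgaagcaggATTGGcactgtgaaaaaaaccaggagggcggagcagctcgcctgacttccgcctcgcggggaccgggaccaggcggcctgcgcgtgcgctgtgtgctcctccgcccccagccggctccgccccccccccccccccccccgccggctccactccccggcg
Psmd12: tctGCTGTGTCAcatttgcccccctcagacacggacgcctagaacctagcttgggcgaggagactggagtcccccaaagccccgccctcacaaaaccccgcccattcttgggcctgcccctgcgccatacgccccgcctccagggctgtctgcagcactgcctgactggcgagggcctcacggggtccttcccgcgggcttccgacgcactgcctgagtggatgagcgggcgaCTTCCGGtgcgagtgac
Psmb3: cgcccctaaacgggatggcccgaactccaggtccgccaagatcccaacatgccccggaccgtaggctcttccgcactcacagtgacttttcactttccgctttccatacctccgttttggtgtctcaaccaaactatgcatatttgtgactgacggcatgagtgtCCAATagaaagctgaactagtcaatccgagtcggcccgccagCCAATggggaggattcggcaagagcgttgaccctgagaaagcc
Psme4: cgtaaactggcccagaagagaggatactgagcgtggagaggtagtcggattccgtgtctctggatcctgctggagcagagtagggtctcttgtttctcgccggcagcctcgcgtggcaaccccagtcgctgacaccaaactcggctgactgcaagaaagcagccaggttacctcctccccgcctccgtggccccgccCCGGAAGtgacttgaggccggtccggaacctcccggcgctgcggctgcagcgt

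Psmb5 held 1 antioxidant response core at position -47 from the start, and Psmd12 held 1 at -247 and an ETS core at -17. Psma3 and Psmd14 held a CCAAT box each, Psmb3 held 2 of them, and Psme4 held an ETS core. Of the 50 members, 42 were in the RefSeq table, and Psma8, Psmb1, Psmb2, Psmb7, Psmc3, Psmd3, Psmd7 and Psmg2 were not. The antioxidant response core was found in 5 of the 42 (11.9%) against 10.2% of all 32851 promoters of the same length, and the CCAAT box in 15 (35.7%) against 33.8%. The ETS core was found in 13 (31.0%) against 6.91%, and the GC box (GGGCGG), which is not capitalized here, in 22 (52.4%) against 32.7%. Median GC content was 57.6% in member promoters and 52.4% in all, so the GC-rich letters differ along with base composition. A match is a run of letters and not a measured binding site.

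In DMSO zygotes the messages of the core and regulatory particle were abundant. The 31 constitutive subunits of the core and regulatory particle summed to 2329 ± 123 TPM (SD, n = 2), with a median of 44.5 TPM per subunit and a range of 1.75 to 442 TPM. The highest was Psmd4, a receptor for ubiquitin chains in the regulatory particle, at 382 and 501 TPM. Psma7, of the alpha ring, stood at 292 and 295 TPM, and Psmc1, an ATPase, at 201 and 263 TPM. The lowest of the 31 were Psmb5, which carries the chymotrypsin-like site, at 2.54 and 1.93 TPM, and Psmd13, of the regulatory particle lid, at 2.37 and 1.12 TPM. Messages of subunits that join the same particle thus spanned over 2 orders of magnitude in TPM, which is scaled by message length.

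**Figure D1:**
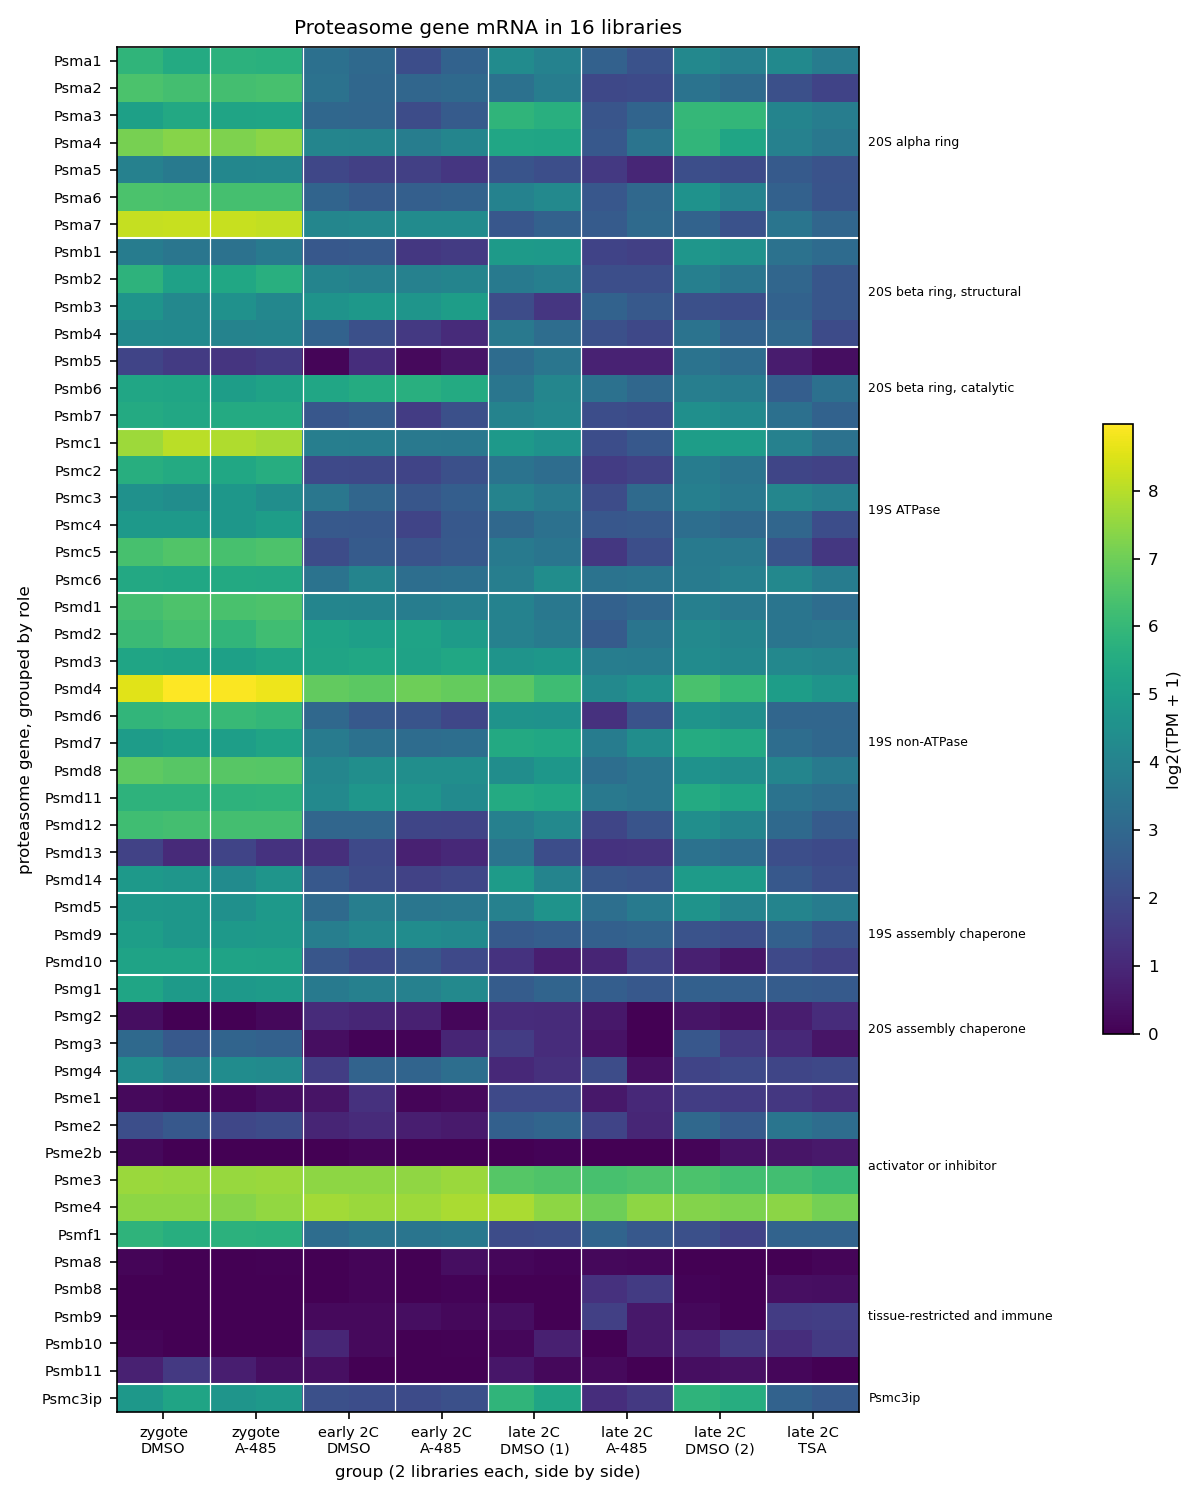
Level of each member in each of the 16 libraries as log2(TPM + 1), with rows ordered by role and the 2 libraries of a group side by side. "Late 2C DMSO (1)" are the controls of the A-485 experiment and "(2)" those of the TSA experiment; most alpha ring and regulatory particle rows are brightest in zygotes, dim at early 2-cell and regain part of their level in late 2-cell DMSO embryos, while Psme3 and Psme4 stay bright across the 8 groups.

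From zygote to early 2-cell embryo the proteasome messages fell. A call here needed an adjusted p under 0.05 in edgeR's quasi-likelihood test, a change of at least 2-fold and an FPKM averaging 1 or more in one of the groups. Of 47 members tested, 25 fell and 3 rose, against a background of 14.9% of all genes tested that were called lower and 11.2% called higher. The median log2 change over members was -1.63, and over all genes with an FPKM of at least 1 it was -0.12. No label gives a batch of preparation or sequencing for the stages, so a batch and the stage cannot be told apart. Levels are relative to the other messages of a library, so a change in the total RNA of an embryo cannot be seen.

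The alpha ring fell as a whole, with all 7 subunits called lower. Its summed level went from 709 ± 6.49 TPM to 64.0 ± 3.96 TPM (SD, n = 2), or 9.03% of the zygote level. TPM is relative to the summed FPKM of a library. That sum was 799722 and 812227 in the DMSO zygote libraries and 1284412 and 1268954 in the early 2-cell DMSO libraries. Falls from zygotes are therefore larger in TPM, here and below, than in edgeR's counts. Psma7 went from 292 and 295 TPM to 16.4 and 17.4 TPM, with a log2 change of -3.33 ± 0.11 (SE; adjusted p = 7.32e-11, edgeR). Of the 6 ATPases 5 fell past the fold cutoff, led by Psmc5 (log2 change -3.66) and Psmc1 (-3.30), and the exception, Psmc3, changed by -0.69 with an adjusted p of 0.0151 in edgeR. Their summed level fell to 10.1% of that in zygotes. The groups did not overlap for any of these sums.

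The non-ATPases and the beta ring fell less evenly. Of the 11 non-ATPases 7 fell, and their sum went to 26.9% of the zygote level. Psmd4 went to 111 and 105 TPM, still the most abundant subunit of the core and regulatory particle. Of the 4 structural beta subunits 1 fell and 1 rose, and of the 3 catalytic subunits only Psmb7, the trypsin-like one, was called lower (-2.24). Psmb6, the caspase-like subunit, had 38.4 and 37.8 TPM in zygotes and 39.0 and 44.8 TPM at early 2-cell. Its log2 change was 0.84 ± 0.16 (adjusted p = 0.000779, edgeR), higher but under the fold cutoff. Scaled to mitochondrial messages it was -0.48.

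The members called higher at early 2-cell were Psmg2, Psme4 and Psmb3. Psmg2, a chaperone of alpha ring assembly, was near its detection limit, at 0.25 and 0 TPM in zygotes and 1.13 and 0.96 TPM at early 2-cell (log2 change 4.10, adjusted p = 0.0124 in edgeR). Psme4, which encodes the PA200 activator, was at 172 and 174 TPM in zygotes and 209 and 198 TPM at early 2-cell. Its log2 change was 1.02 ± 0.06 (adjusted p = 2.52e-08, edgeR). The fold in edgeR's counts was thus larger than in TPM, which is relative to the summed FPKM given above. Psmb3, a structural beta subunit, had 24.0 and 17.3 TPM and then 23.2 and 26.7 TPM, groups that overlapped in TPM, and a log2 change of 1.00 (adjusted p = 0.00157, edgeR). Scaled to total counts 1 member was called higher and 26 lower, where 2089 and 3267 of all 20106 genes were. Scaled to mitochondrial messages 0 members were called higher and 37 lower, where 1270 and 8196 of all genes were. Log2 changes were then -0.31 for both Psme4 and Psmb3. Without the zygote DMSO replicate 2, 0 members were called higher.

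**Figure D2:**
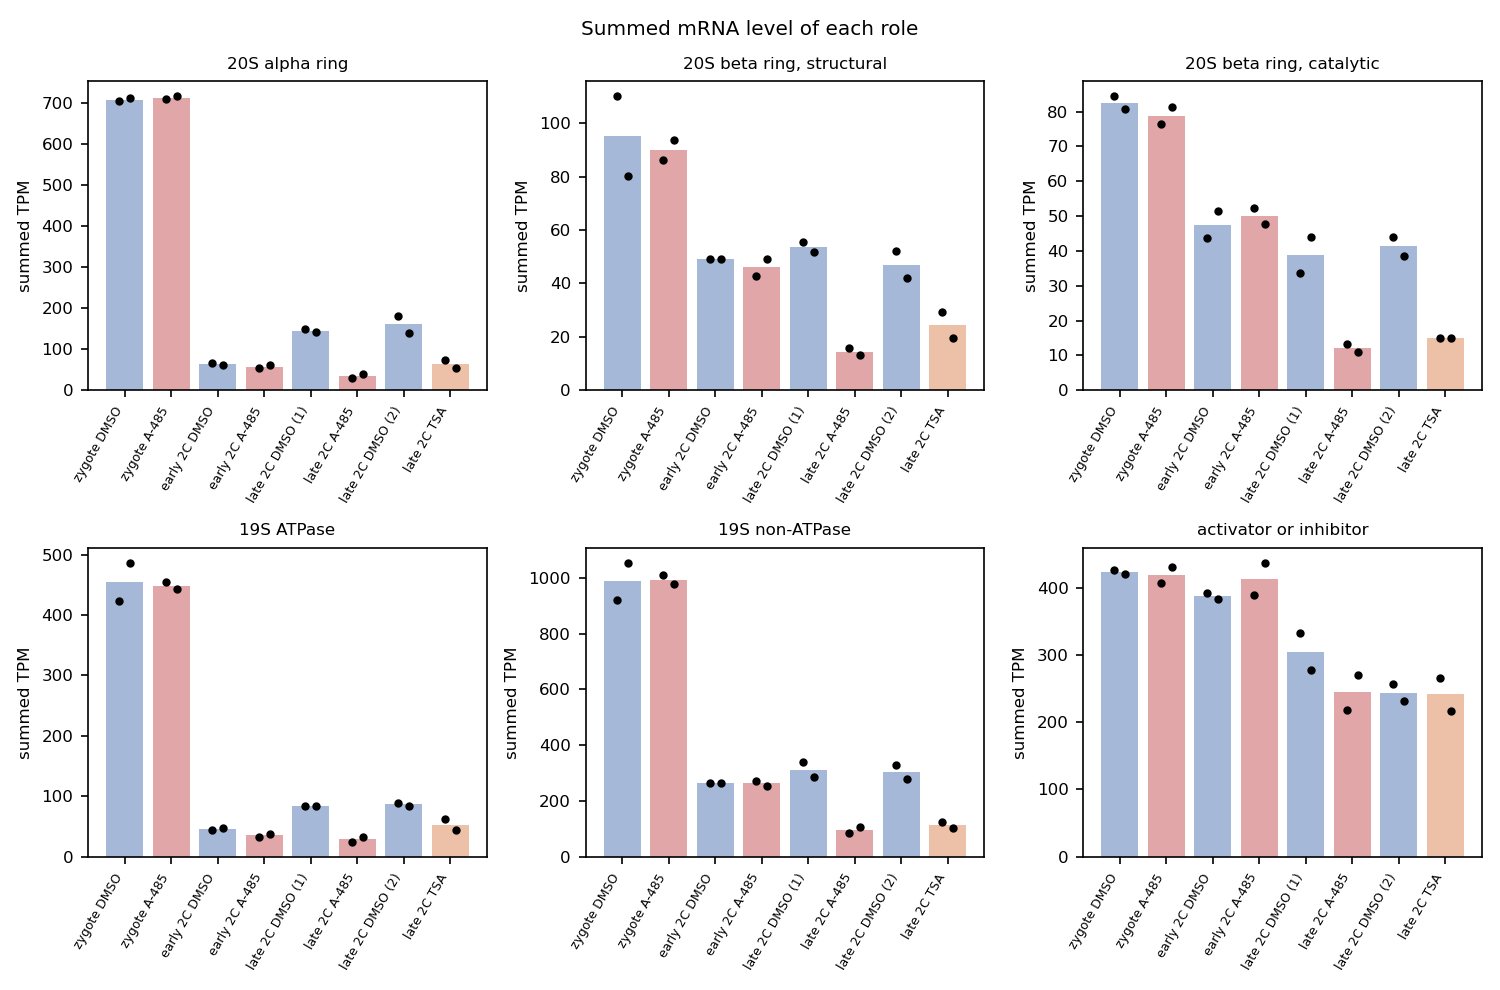
Summed TPM of the members of 6 roles, with a bar for the mean and a point for each of the 2 libraries of a group, in blue for DMSO, red for A-485 and orange for TSA, where "late 2C DMSO (1)" are the controls of the A-485 experiment and "(2)" those of the TSA experiment. The alpha ring falls from 709 TPM in zygotes to 64.0 TPM at early 2-cell and stands at 145 TPM in late 2-cell DMSO embryos and 33.7 TPM after A-485, while activators and inhibitor stay between 241 and 424 TPM.

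From early to late 2-cell embryo, in DMSO, 20 of 47 members tested rose and 8 fell, against a background of 15.9% of all genes called higher and 8.92% called lower. The median log2 change over members was 0.91, and over all genes with an FPKM of at least 1 it was 0.03. The sum of the core and regulatory particle rose from 472 ± 3.47 to 633 ± 39.1 TPM (SD, n = 2), which is 27.2% of the zygote level. The DMSO embryos of the TSA experiment, taken at the same stage, gave 639 ± 78.0 TPM. Between the late 2-cell DMSO groups 0 members were called in edgeR, against backgrounds of 1.19% higher and 0.136% lower. At an unadjusted p under 0.05 there were 15 of 48 members and 2777 of 20647 genes. The median log2 change, TSA experiment against A-485 experiment, was 0.27 over members and 0.0035 over all genes with an FPKM of at least 1. Of the 48 members, 38 were above 0 and 10 below. Set against the same early 2-cell libraries, the DMSO embryos of the TSA experiment had 25 members higher and 7 lower, against backgrounds of 19.3% and 10.3%.

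Among the subunits of the core and regulatory particle, Psmb5 and Psma3 rose the most. Psmb5, the chymotrypsin-like catalytic subunit, went from 0.09 and 1.26 TPM to 8.05 and 10.5 TPM (log2 change 4.56 ± 0.69, adjusted p = 0.000217, edgeR). Its zygote libraries had 2.54 and 1.93 TPM, a comparison across both divisions that was not tested. Psma3, of the alpha ring, went from 7.02 and 6.79 TPM to 58.0 and 50.1 TPM (3.08 ± 0.20, adjusted p = 2.55e-07, edgeR). Psmb1, a structural beta subunit, had 12.5 and 10.5 TPM in zygotes, 4.59 and 4.80 TPM at early 2-cell and 28.8 and 28.1 TPM at late 2-cell. In these 3 genes the late 2-cell libraries were thus the highest of the 3 stages in DMSO. Psmd14, the deubiquitinase of the lid, went from 4.51 and 3.29 TPM to 29.1 and 15.5 TPM. By role, 4 of 7 alpha subunits, 2 of 4 structural and 2 of 3 catalytic beta subunits, 3 of 6 ATPases and 5 of 11 non-ATPases rose.

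Not all subunits of a ring moved together. In the alpha ring, Psma7 fell further, from 16.4 and 17.4 TPM to 4.42 and 5.94 TPM (log2 change -1.63, adjusted p = 0.000633, edgeR), while Psma3, Psma6, Psma4 and Psma1 rose by 3.08, 1.53, 1.36 and 1.12. In the beta ring, Psmb3 fell from 23.2 and 26.7 TPM to 3.28 and 1.66 TPM (-3.27 ± 0.34, adjusted p = 1.01e-05, edgeR), and the catalytic Psmb6 fell from 39.0 and 44.8 TPM to 10.5 and 16.3 TPM (-1.54). The other members called lower were Psmd10, Psmd9, Psmd2, Psmf1 and Psmg1. Psmd9 and Psmd10 are chaperones of regulatory particle assembly, Psmg1 is a chaperone of alpha ring assembly, and Psmf1 encodes PI31, an inhibitor of the core particle in vitro. Assembly chaperones thus split, as Psmg3 rose by 3.62 from 0.26 and 0.07 TPM to 2.00 and 1.19 TPM, and Psmg4 did not pass the test (-1.79 ± 0.79, adjusted p = 0.102, edgeR). The call of Psmg3 was lost without early 2-cell replicate 2 (adjusted p = 0.0508, edgeR) or late 2-cell replicate 1 (0.146), and that of Psmd10 without early 2-cell replicate 1 (0.0842) or late 2-cell replicate 2 (0.0627). Psme1 (2.20) and Psme2 (2.12) also rose, and they lost the call without early 2-cell replicate 1 (adjusted p of 0.0957 and 0.0857), without late 2-cell replicate 1 (Psme1, 0.0703) or without late 2-cell replicate 2 (Psme2, 0.0756).

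The matching rule also took in Psmc3ip, which went from 3.52 and 3.38 TPM to 57.6 and 37.9 TPM (log2 change 3.76 ± 0.25, adjusted p = 2.96e-07, edgeR). Its counts are reported with the members but belong to no subunit.

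**Figure D3:**
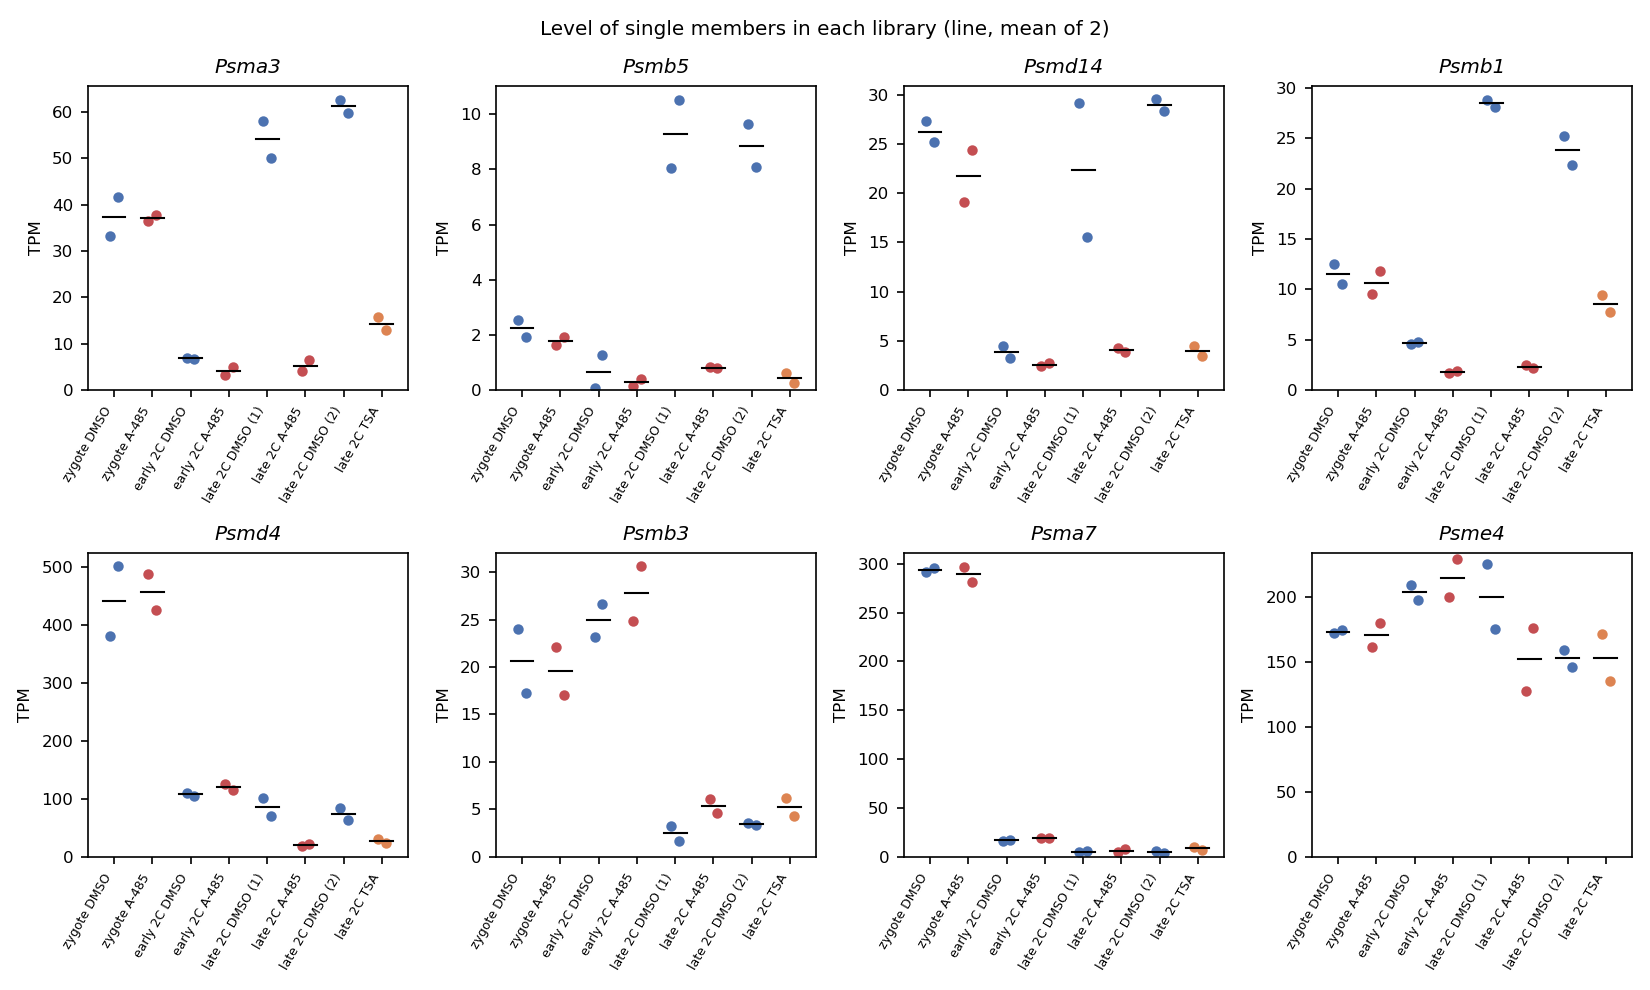
Level in TPM of 8 members in every library, with a line at the mean of the 2 libraries, in blue for DMSO, red for A-485 and orange for TSA; "(1)" and "(2)" mark the late 2-cell controls of the A-485 and TSA experiments. Psma3, Psmb5, Psmd14 and Psmb1 are low at early 2-cell, high in both late 2-cell DMSO groups and low again with either inhibitor, Psmb3 and Psma7 are low in every late 2-cell group, and Psme4 lies between 128 and 229 TPM in every library.

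In zygotes, A-485 left the members near their control levels. Of 44 members tested 0 were called higher or lower in edgeR, 1 was at an unadjusted p under 0.05, and DESeq2 also called 0. The background was 0.00548% of genes called higher and 0.0657% called lower. The median log2 change was -0.01, with single members between -0.50 and 0.38. The core and regulatory particle summed to 2325 ± 19.1 TPM with A-485 and 2329 ± 123 TPM with DMSO.

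In early 2-cell embryos with A-485, 2 of 48 members tested fell and 0 rose, against backgrounds of 7.9% called lower and 0.402% called higher. The 2 were Psmd12, of the lid, and Psmb1. Psmd12 had 6.77 and 6.88 TPM with DMSO and 2.67 and 2.54 TPM with A-485 (log2 change -1.42 ± 0.23, adjusted p = 0.0012, edgeR). Psmb1 had 4.59 and 4.80 TPM with DMSO and 1.74 and 1.94 TPM with A-485 (-1.30 ± 0.27, adjusted p = 0.00709, edgeR). The groups did not overlap for either gene. Without the fold cutoff 2 were lower and 1 was higher, where 9.72% and 1.4% of all genes were. That 1 member was Psmd4, higher by 0.33 ± 0.09 (adjusted p = 0.0267, edgeR), and it lost the call without A-485 replicate 1 (0.138), DMSO replicate 1 (0.0612) or DMSO replicate 2 (0.0596), and when scaled to mitochondrial messages (0.28). At any fold, DESeq2 had 3 members higher and 2 lower, and the fits without a low-count filter or with a replicate block each had 3 higher and 4 lower. Psme3, with log2 changes of 0.20 to 0.26, was past the threshold in those 3 fits and in that of all 16 libraries (adjusted p from 0.00818 with DESeq2 to 0.0496 without the filter). The share of members called lower was below the background, and the median over members was -0.10 against -0.01 over all genes with an FPKM of at least 1.

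In late 2-cell embryos that had been released from A-485, 24 of 49 members tested were lower than in DMSO and 3 were higher, against backgrounds of 16.8% and 10.5%. The median log2 change was -1.38 over members and 0.02 over all genes with an FPKM of at least 1. The core and regulatory particle summed to 184 ± 25.8 TPM (SD, n = 2), 29.0% of the DMSO level and 40.6% of that in early 2-cell embryos with A-485. The summed FPKM was 2045551 and 1849898 in these libraries, 1287260 and 1438064 with DMSO, and 1315489 and 1269322 at early 2-cell with A-485. These falls are thus also larger in TPM than in counts. Without the fold cutoff 28 were lower and 6 higher, where 20.2% and 13.7% of all genes were. Scaled to mitochondrial messages, which shifted the median of all genes by -0.98, 33 members were lower and 1 higher. Of all 22822 genes, 6874 were then lower and 1177 higher. The members' median relative to that of all genes stayed at -1.40. Without the fold cutoff, that scaling had 35 members lower and 1 higher.

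The lower members came from each ring of the particle. The alpha ring stood at 33.7 ± 7.38 TPM against 145 ± 4.33 TPM in DMSO, with 5 of 7 subunits lower. Psma3 had 4.19 and 6.41 TPM against 58.0 and 50.1 TPM (log2 change -2.38 ± 0.24, adjusted p = 8.07e-06, edgeR). Psmb5 had 0.83 and 0.80 TPM against 8.05 and 10.5 TPM (-3.67 ± 0.52, adjusted p = 0.000141, edgeR). The early 2-cell DMSO libraries had 7.02 and 6.79 TPM of Psma3 and 0.09 and 1.26 TPM of Psmb5.

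Psmd14 had 4.24 and 3.86 TPM against 29.1 and 15.5 TPM (log2 change -3.36 ± 0.35, adjusted p = 1.2e-05, edgeR), and Psmb1 had 2.48 and 2.21 TPM against 28.8 and 28.1 TPM (-3.31 ± 0.23, adjusted p = 3.16e-07, edgeR). Of the 11 non-ATPases 8 passed the fold cutoff, and the remaining Psmd1, Psmd3 and Psmd8 were lower at smaller folds (-0.75, -0.63 and -0.96). Of the 6 ATPases 5 were lower, and the exception, Psmc6, changed by -0.69 ± 0.29 (adjusted p = 0.0779, edgeR). Psmc3ip was lower by 4.48 on the log2 scale, at 1.24 and 1.84 TPM against 57.6 and 37.9 TPM.

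The assembly chaperones and the activators held fewer calls, and no test compared them with the subunits. None of the 7 chaperones was called after late 2-cell A-485 in edgeR, where Psmd5 (log2 change -0.86) and Psmd9 (0.65) had an adjusted p under 0.05 at smaller folds. Psmg3 had 0.37 and 0.02 TPM against 2.00 and 1.19 TPM, so the groups did not overlap, with a log2 change of -2.45 ± 1.10 (adjusted p = 0.101, edgeR). It passed the test with all 16 libraries in 1 fit (0.0411), when scaled to mitochondrial messages (0.0163) and without A-485 replicate 1 (0.02). Psmg2, at 0.48 and 0 TPM against 1.19 and 1.15 TPM, did not pass (adjusted p = 0.318, edgeR) except without A-485 replicate 1 (0.0272), which left a library with 0 counts alone in its group. The summed level of activators and inhibitor was 244 ± 37.2 TPM against 305 ± 39.3 TPM in DMSO, or 80.1%, with 0 of 5 tested called and 2 higher at smaller folds. Most of that sum was Psme4, which had 128 and 176 TPM against 225 and 175 TPM, so the groups overlapped, and its log2 change was 0.07 ± 0.10 (adjusted p = 0.585, edgeR). Psme3, which encodes PA28 gamma, changed by 0.30 ± 0.10 (adjusted p = 0.044, edgeR) and Psmf1 by 0.87 ± 0.27 (adjusted p = 0.0261). Both lost significance without A-485 replicate 1 (0.126 and 0.0897) or DMSO replicate 1 (0.0885 and 0.0903), as did Psme3 without A-485 replicate 2 (0.128) and Psmf1 without DMSO replicate 2 (0.0766). Scaled to mitochondrial messages all of these turned negative, at -0.90 for Psme4, -0.69 for Psme3 and -0.11 for Psmf1. Psme1 and Psme2 encode the alpha and beta subunits of PA28. Psme1 had 0.49 and 1.07 TPM against 2.98 and 2.94 TPM (log2 change -1.55 ± 0.69, adjusted p = 0.0995, edgeR), and it passed when scaled to mitochondrial messages (-2.52, adjusted p = 0.00738). Psme2 had 2.61 and 0.97 TPM against 5.70 and 6.54 TPM (-0.89 ± 0.76, adjusted p = 0.383, edgeR). For both, neither A-485 library reached the DMSO range in TPM.

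**Figure D4:**
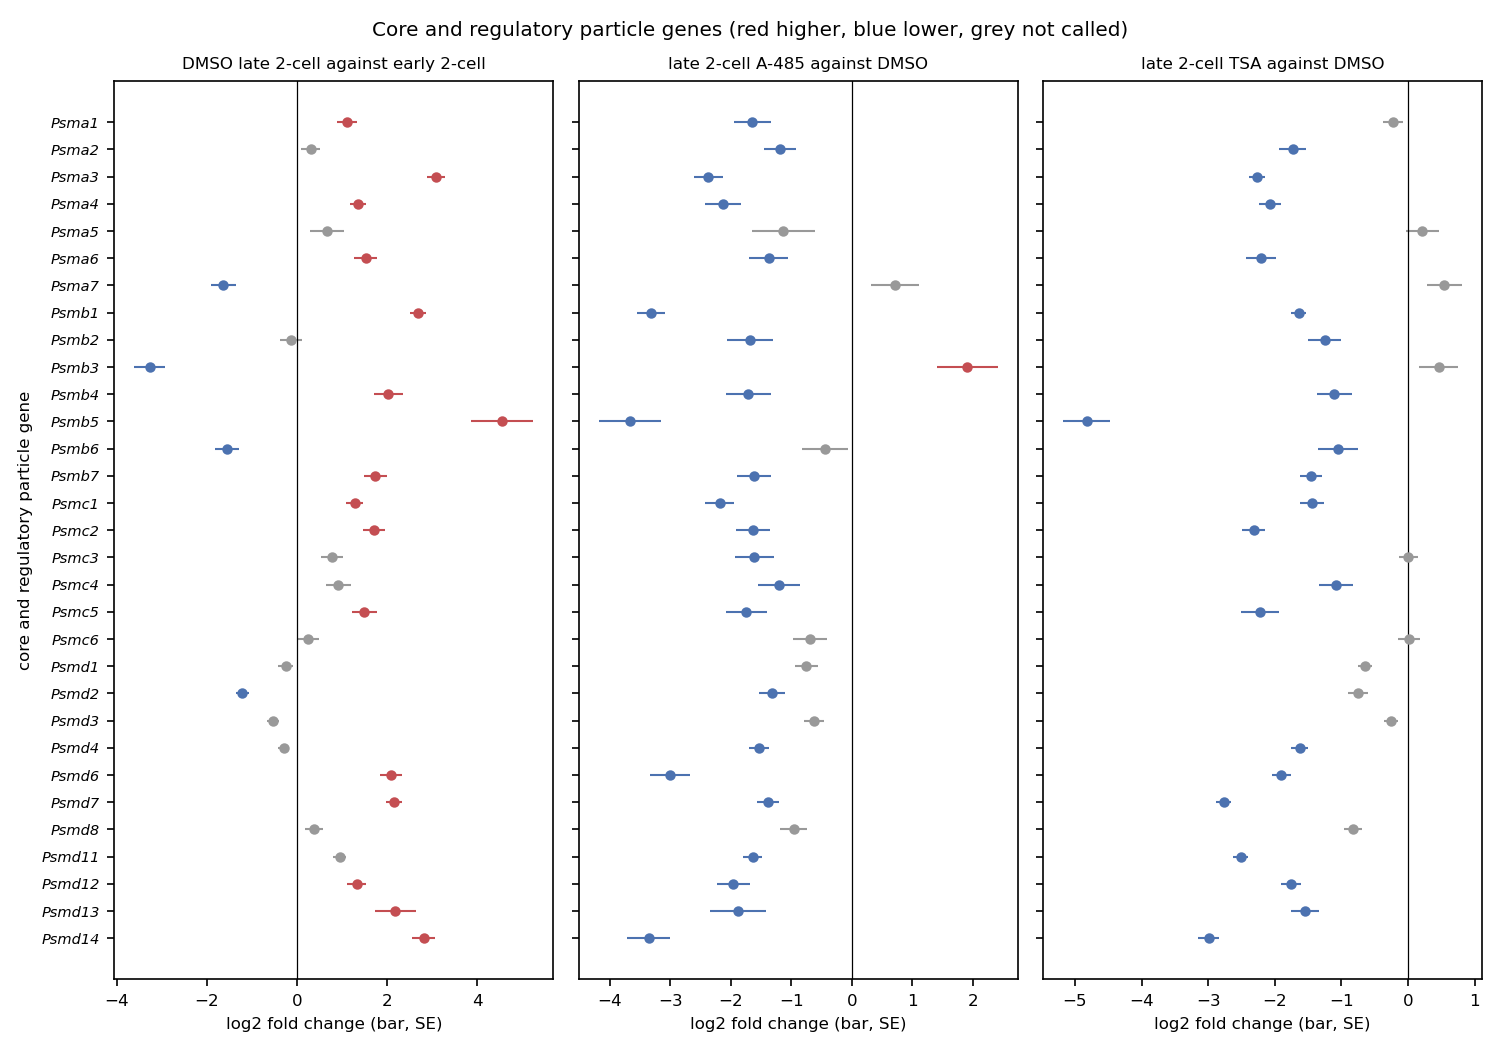
Log2 fold change with its SE from edgeR for the 31 constitutive subunits of the core and regulatory particle in 3 comparisons, with called members in red (higher) or blue (lower) and others in grey. Most subunits in red on the left are blue in the middle and on the right, and Psmb3 is blue on the left and red in the middle; the left and middle comparisons share the late 2-cell DMSO libraries.

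The 3 members higher after A-485 were the immune subunits Psmb8 and Psmb9 and the structural Psmb3. Psmb8 had 42 and 64 counts (1.40 and 1.92 TPM) after A-485 and 0 in both DMSO libraries, a level at least 26.1-fold higher when each library at 0 is given 3 counts (adjusted p = 0.000304, edgeR). Psmb9 had 2.22 and 0.49 TPM against 0.25 and 0 TPM (log2 change 3.20 ± 1.11, adjusted p = 0.0395, edgeR), and it lost the call without A-485 replicate 1 (0.147) or DMSO replicate 2 (0.0642). Psmb3 had 6.09 and 4.63 TPM against 3.28 and 1.66 TPM (1.91 ± 0.50, adjusted p = 0.01, edgeR), and without DMSO replicate 2 its adjusted p was 0.0525. Without that DMSO library 1 member was called higher. With scaling to mitochondrial messages Psmb9 and Psmb3 changed by 2.28 and 0.95 and did not pass (adjusted p of 0.114 and 0.161), which left Psmb8 as the 1 member higher.

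These immune subunits are best known from cells of the immune system. The 5 leukocyte markers (Ptprc, Lcp1, Coro1a, Cd52 and Laptm5) summed to 3.90 and 2.24 TPM after late 2-cell A-485 against 3.48 and 5.36 TPM in its DMSO libraries, and to 7.47 and 5.46 TPM with TSA against 1.96 and 1.45 TPM. Ptprc, which defines leukocytes, had 0 counts in both late 2-cell A-485 libraries and 6 and 2 counts with TSA. The leukocyte sum was highest in zygotes, at up to 23.3 TPM. There 3 of the 5 markers had 3 counts or fewer in each library, so that sum is no measure of leukocytes. The 5 fibroblast markers summed to 7.00 and 8.88 TPM after A-485 against 0.10 and 0.44 TPM. In both of these A-485 libraries 3 of the 5 had 3 counts or fewer, so that sum too is no measure of fibroblasts. With TSA the fibroblast markers summed to 6.27 and 4.99 TPM against 0.70 and 1.18 TPM. The 3 erythroid markers summed to 0.12 and 0.30 TPM after A-485 against 0.55 and 0.52 TPM, and to 5.34 and 3.58 TPM with TSA against 0.13 and 0.04 TPM. The part of any such cells in the Psmb8 and Psmb9 levels was not tested. Psmb8 overlaps Gm20496, and Psmb9 overlaps Tap1, each on the opposite strand, and whether the counting used strand is not stated, so reads of the overlapping parts cannot be assigned with certainty. Psmb10, Psmb11 and Psma8, the remaining tissue-restricted subunits, did not pass the test (adjusted p of 0.595, 0.0844 and 0.891, edgeR), at 0 to 0.71 TPM in these 4 libraries.

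With TSA, 23 members were lower, among them most of those lower after A-485. Of 49 members tested 23 were called lower and 2 higher, against backgrounds of 13.9% and 13.8%. The median log2 change was -0.82 over members and, at an FPKM of at least 1, -0.93 over members and -0.03 over all genes. Scaled to total counts, which shifted the median of all genes by 0.36, 18 members were lower and 4 higher. Of all 23429 genes, 2384 were then lower and 4108 higher. The core and regulatory particle summed to 269 ± 47.3 TPM (SD, n = 2) against 639 ± 78.0 TPM in DMSO, or 42.1%.

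Psmb5 had 0.61 and 0.25 TPM with TSA against 9.64 and 8.08 TPM (log2 change -4.82 ± 0.36, adjusted p = 1.35e-06, edgeR). Psmd14 had 4.49 and 3.46 TPM against 29.5 and 28.3 TPM (-2.99 ± 0.16, adjusted p = 1.28e-07, edgeR), and Psma3 had 15.7 and 13.0 TPM against 62.6 and 59.7 TPM (-2.27 ± 0.12, adjusted p = 1.34e-07, edgeR). Psmd7, of the lid, had 8.25 and 6.95 TPM against 44.8 and 41.4 TPM (-2.77 ± 0.11, adjusted p = 1.56e-08, edgeR). The groups did not overlap for any of these genes. All 3 catalytic subunits were called lower, Psmb6 by the least (-1.05 ± 0.30, adjusted p = 0.0157, edgeR), a call lost without TSA replicate 1 (adjusted p = 0.0764).

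The members higher with TSA were Psmb9 and Psmd10. Psmb9 had 54 and 51 counts with TSA and 2 and 0 counts with DMSO, a ratio of 70.3 whose exact 95% interval, for counting error only, ran from 19 to 588.0 (adjusted p = 0.000398, edgeR). Psmd10, also known as gankyrin, had 2.91 and 2.35 TPM against 0.74 and 0.40 TPM (log2 change 2.05 ± 0.38, adjusted p = 0.00133, edgeR). Psmb8 did not pass (adjusted p = 0.0549, edgeR), at 14 and 13 counts (0.28 and 0.26 TPM) with TSA and 2 and 0 counts (0.07 and 0 TPM) with DMSO. It passed the test when scaled to total counts (0.0344), with no low-count filter (0.0357) and without DMSO replicate 1 (0.0344), at a mean FPKM of 0.50 that is under the minimum for a call. Activators and inhibitor stood at 98.9% of their DMSO sum, with 171 and 135 TPM of Psme4 against 159 and 146 TPM.

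The members lower under the inhibitors overlapped. Of the 24 lower after A-485 and the 23 lower with TSA, 21 were shared, or 87.5% and 91.3% of each list. The comparisons used separate DMSO libraries, and across the 48 members tested in both the log2 changes had a Pearson r of 0.798 and a Spearman rho of 0.774, given as a description over genes that are not independent replicates. Over all genes, 2401 were shared, or 62.8% of the 3824 lower after A-485 and 73.9% of the 3247 lower with TSA. Psma1, Psmc3 and Psmd2 were called lower with A-485 alone, and Psmb6 and Psmg3 with TSA alone. The call of Psmg3 with TSA (log2 change -1.65 ± 0.56, adjusted p = 0.0368, edgeR) was lost with DESeq2 (0.0536), when scaled to total counts (0.0846), with all 16 libraries in 1 fit (0.185), without TSA replicate 2 (0.178) and without DMSO replicate 1 (0.258). The test of the difference between its A-485 and TSA effects did not pass (-0.93 ± 1.17, adjusted p = 0.688, edgeR).

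A test of the difference between both effects, each against its own DMSO libraries, called 9 of 50 members. The A-485 effect was the lower one in 6 and the higher one in 3, against backgrounds of 12.5% and 4.31%. These counts are near the backgrounds, so members were called about as often as genes at large. Psmc3, the ATPase RPT5, changed by -1.61 ± 0.32 after A-485 and by 0.01 ± 0.14 with TSA (difference -1.72 ± 0.34, adjusted p = 0.00154, edgeR). Psma1 changed by -1.64 and -0.23 (difference -1.53, adjusted p = 0.00283), and Psmb1 by -3.31 and -1.64 (difference -1.78, adjusted p = 3.08e-05). Psmc1, Psmd6 and Psmc3ip also had the lower A-485 effect, by -0.85, -1.21 and -1.21. The effect of TSA was the lower one in Psmd7 (-1.38 with A-485 and -2.77 with TSA, difference 1.27), Psmd11 (difference 0.76) and Psme3 (difference 0.39). Scaled to mitochondrial messages, 22 members had a lower A-485 effect and 0 a higher one, and without replicate 2 of the DMSO libraries of the TSA experiment 3 had a lower effect and 1 a higher one. Of all 26554 genes, 6472 had a lower A-485 effect and 351 a higher one with the mitochondrial scaling. The inhibitors also differed in their time of treatment and in the washout.

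Whether members that rise from early to late 2-cell were also those lowered by an inhibitor was counted with separate DMSO libraries on the late side. Of 25 members that rose in the DMSO embryos of the TSA experiment, 20 (80%) were lower after A-485, and of all 4077 genes that rose, 65.7% were. Of 20 members that rose in the DMSO embryos of the A-485 experiment, 17 (85%) were lower with TSA, and of all 3238 genes that rose, 67.5% were. The risers without a lower call after A-485 were Psmb10, Psmd5, Psme1, Psme2 and Psmg3, and with TSA they were Psma1, Psme1 and Psme2. The A-485 list also had 4 members that had not risen (Psma2, Psmb2, Psmd2 and Psmd4), of which Psmd4 went from 102 and 71.0 TPM in DMSO to 17.7 and 22.3 TPM.

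The A-485 effect itself differed between early and late 2-cell embryos. It was lower at late 2-cell in 18 of 49 members and higher in 2, against backgrounds of 9.82% and 9.28%, with a median difference of -0.71 over members and 0.22 over all genes with an FPKM of at least 1. Among subunits that passed this test, the largest differences were those of Psmd14 (-2.53), Psmd6 (-2.21), Psma3 (-2.01) and Psmc1 (-2.0). Psmb5 had a difference of -2.98 ± 1.18 that did not pass (adjusted p = 0.0803, edgeR). The 2 higher ones were Psmb3 and Psmb8. Scaled to mitochondrial messages 33 were lower and 1 higher, and without replicate 2 of the early or of the late 2-cell DMSO libraries 1 was higher. Of all 25141 genes, 6200 were lower and 971 higher with the mitochondrial scaling. Between zygotes and early 2-cell embryos the effect was lower at early 2-cell in 3 of 48 members (Psmb1, Psmc6 and Psmd12) and higher in 0, against backgrounds of 4.61% and 0.852%. The time of exposure to A-485 may differ between these stages too. At an unadjusted p under 0.05 there were 14 members in either direction in that comparison. Of all 23002 genes, 1739 were lower and 68 higher when scaled to mitochondrial messages. Without any 1 of the 4 zygote libraries 1 member was lower, without replicate 1 of the zygote DMSO libraries 1 was higher, and scaled to mitochondrial messages 8 were lower.

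The genes around the proteasome were counted on a list of 28 that comprises associated proteins, regulators of proteasome genes, ubiquitin shuttles, ubiquitin genes, E1 enzymes and the p97 segregase. After late 2-cell A-485, 12 were lower and 1 was higher, with TSA 10 were lower and 0 higher, and from early to late 2-cell in DMSO 7 rose and 3 fell. The backgrounds over all genes, in the same order, were 16.8% lower and 10.5% higher, 13.9% lower and 13.8% higher, and 15.9% risen and 8.92% fallen. Adrm1, the ubiquitin receptor RPN13 of the regulatory particle, had log2 changes of 2.86 from early to late 2-cell, -3.64 after A-485 and -3.10 with TSA. Vcp, which encodes p97, changed by 2.20, -2.36 and -1.99 in the same order. The first and second of these comparisons share the late 2-cell DMSO libraries. Nfe2l1, which encodes the factor NRF1 that activates proteasome genes when proteasomes are short, changed by 0.47, -0.60 and -0.31 and passed the fold cutoff in none of the 3.

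In early 2-cell embryos with A-485, 5 of the 28 were called lower, against a background of 7.9%. Among them, Rps27a, which encodes ubiquitin fused to a ribosomal protein, changed by -2.07, Zfand2a, a proteasome-binding stress protein, by -1.41 and Vcp by -1.22. In zygotes with A-485, 0 of the 28 were called in edgeR.

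Many members had an open promoter at the stages profiled. Peaks lying within 1 kb of an annotated transcript start were found for 24 of 50 members in late 1-cell DMSO embryos (48.0%, exact 95% interval 33.7% to 62.6%) and 31 in early 2-cell DMSO embryos (62.0%, 47.2% to 75.3%). Among genes with an FPKM of at least 1, those shares were 50.0% and 64.6% of 48 members, and 30.3% and 38.0% of all 19690 genes. With A-485 the numbers were 23 at late 1-cell and 32 at early 2-cell, or 47.9% and 66.7% of the 48 members against 28.8% and 47.1% of all genes with an FPKM of at least 1. From DMSO to A-485 at early 2-cell the share over all genes thus went from 38.0% to 47.1%, and that over members from 64.6% to 66.7%. The lists differed in length, with 10214 (DMSO) and 7094 (A-485) peaks at late 1-cell and 27693 and 13712 at early 2-cell. With the 7094 strongest peaks of each list, 16 and 23 members had one at late 1-cell, and 8 and 21 at early 2-cell. At an FPKM of at least 1 these were 33.3% and 47.9%, and 16.7% and 43.8%, of the 48 members. The shares of all genes were 22.8% and 28.8% at late 1-cell, and 10.9% and 28.6% at early 2-cell. The higher count with A-485 was thus seen over all genes too. Each list is 1 set of peaks over both replicates, so these counts have no replicate error, and the intervals cover counting error only.

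**Figure D5:**
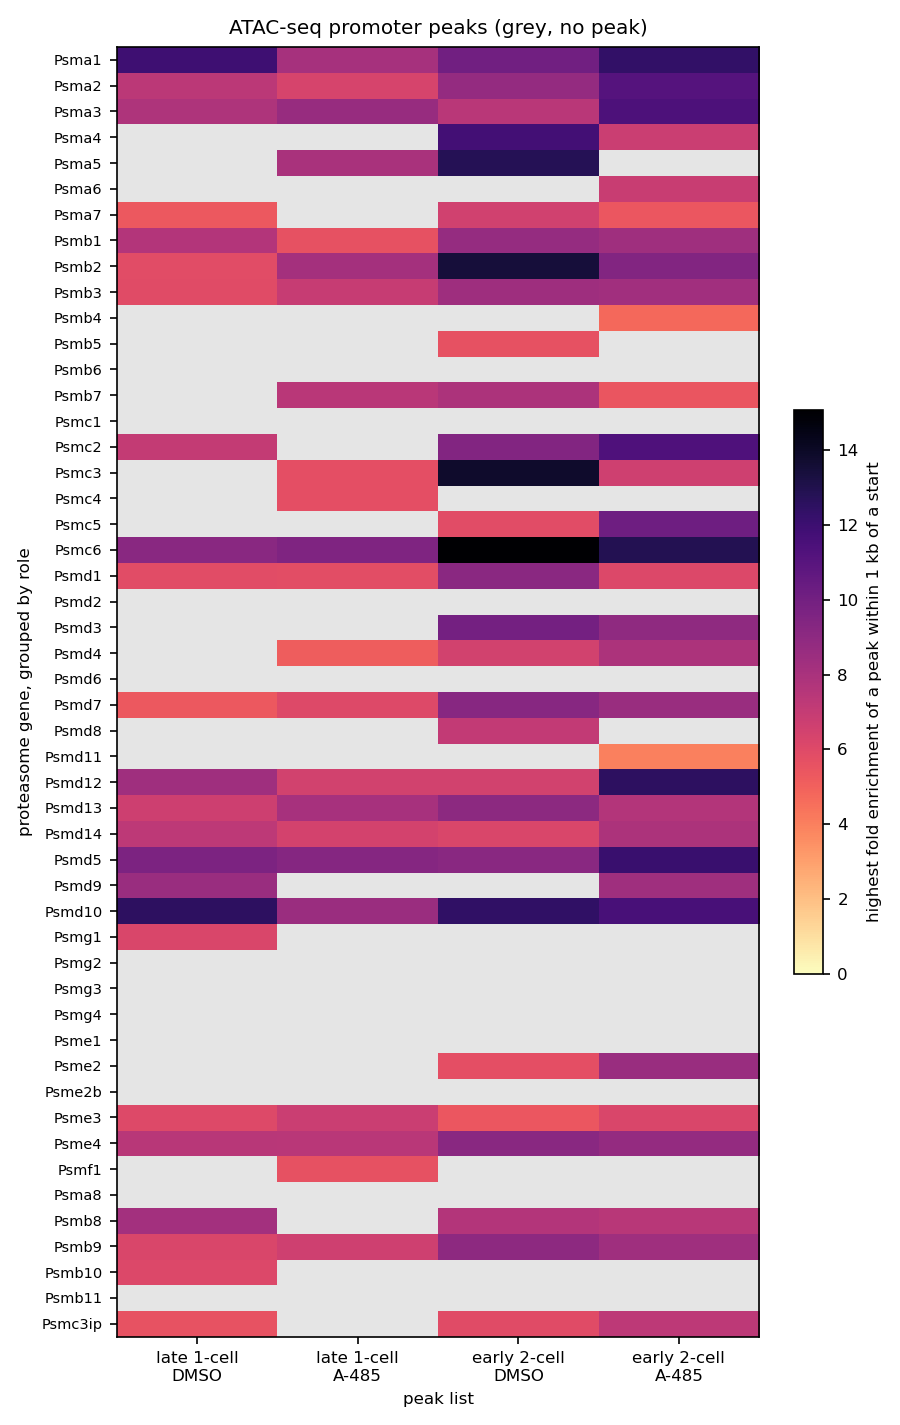
Highest fold enrichment over background of an ATAC-seq peak within 1 kb of a transcript start, for each member in the 4 peak lists, with grey where the list holds no such peak and rows ordered by role. A total of 17 members have a peak in all 4 lists and 11 in none.

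At early 2-cell, 28 of the 31 promoters open in DMSO were also open with A-485 (90.3%, against 81.1% of all genes with an FPKM of at least 1), and the median ratio of their fold enrichments was 0.97. Psma5, Psmb5 and Psmd8 had a peak with DMSO alone, and Psma6, Psmb4, Psmd9 and Psmd11 with A-485 alone. At late 1-cell, 17 of 24 were shared (70.8%, against 76.7%). Psma3, Psmb1, Psmb3, Psmd12, Psmd14 and Psme4 were among the 17 members with a peak in all 4 lists. At Psmd12, lower in early 2-cell embryos with A-485, the fold enrichment over background was 6.51 with DMSO and 12.5 with A-485.

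Of the 24 members lower in late 2-cell embryos after A-485, 17 had a promoter peak at early 2-cell with DMSO and 19 with A-485. Of the 22 tested members called neither way, 11 and 10 did. Those 22 include members of very low level, such as Psma8, Psmb10 and Psmb11, which had no peak in either list. The same split was not counted over all genes, and it was not tested. The 11 members without a peak in any list included the constitutive subunits Psmb6, Psmc1, Psmd2 and Psmd6, whose messages were detected in every group. Of the promoter motifs, the ETS core was in 9 of 19 members lower after A-485 and in 4 of 23 others, and the antioxidant response core in 2 of 19 and 3 of 23. Among members that rose to late 2-cell, the ETS core was in 6 of 17 and in 7 of 25 others. These motif splits were likewise not tested and not counted over all genes.

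Some members are less certain than their counts. For 47 of the 48 members with 20 or more counts in some library, RSEM's posterior SD of the count stayed under 5%, and for Psma3 it reached 10.2%. Psmc3 overlaps Slc39a13, Psmc3ip overlaps Mlx, Psmd13 overlaps Sirt3 and Psma2 overlaps AW209491, so reads in the shared parts could count for either gene. The same holds for further members. Among them are Psma3 (3110056K07Rik), Psma4 (AY074887), Psmb7 (Nek6), Psmd1 (Htr2b), Psmd5 (Cutal), Psmd9 (Hpd), Psme1 (Emc9) and Psme4 (Gm12103), each with the gene named on the opposite strand.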

How the data were processed

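The authors trimmed adaptors with Trimmomatic 0.39, mapped total RNA-seq reads to GRCm38 with STAR 2.7.8a and quantified genes with RSEM 1.3.1. The deposited values per library and gene are a raw expected count, the TPM and the FPKM, both scaled by the authors' RSEM run to effective length and library, and the posterior SD of the count. The annotation and the strand setting of the counting are not given in the sources used here. The authors' ATAC-seq lists came from the ENCODE pipeline, 1 per group over both replicates, and the deposited columns hold the fold enrichment, which is a ratio over background, the −log10 p-value, the −log10 q-value (not used) and a score. The build of these lists is not stated for ATAC-seq, and the labels name GRCm38 and mm10.

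Here, expected counts were rounded and tested in edgeR 4.0.16 (R 4.3.3) with TMM factors, the quasi-likelihood F test and Benjamini-Hochberg adjustment over all genes whose counts summed to 10 or more across the 4 libraries of a comparison, or the 8 of a difference of effects. Calls needed a change of 2-fold or more, an adjusted p under 0.05 and an FPKM averaging 1 or more in one of the groups. Differences of effects needed no fold. Levels are given in TPM, which is relative to the summed FPKM of a library, so percentages between groups differ from edgeR's folds. Gene symbols and transcript starts came from GENCODE M21 of GRCm38, and peak lines at the same position were joined. Promoters were read from RefSeq. Totals of 13206163 to 32585987 counts limit what can be seen of members under 1 TPM. Alternatives were DESeq2 1.42.0, other scalings, no low-count filter, no fold cutoff, a replicate block, other controls, all 16 libraries in 1 fit, other promoter windows and leaving out each library. On simulated data for the early 2-cell A-485 comparison, with 20109 genes, 191 of 200 changed genes were recovered.

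Members and lists were chosen with earlier results of these data known. Named with values were the catalytic, tissue-restricted and immune subunits, the activators and inhibitor, the 20S chaperones, Psmc3ip, and in each comparison the 4 members that changed most in each direction among those with an adjusted p under 0.05 and an FPKM of 1 or more. Further members, such as those of the difference between inhibitors, were named after their values were seen. Columns of samples without a label numbered 0. H3K27ac profiles were not used here. Of the 29 pathway genes listed, 28 were found. Single values of some of them are not reported here.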

Additional observations from a re-analysis of the deposited data

Results flagged for a closer look

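For 20 members the effect of A-485 differed between early and late 2-cell embryos, by an interaction test in edgeR over 8 libraries (adjusted p under 0.05), and these members deserve a closer look. Values are the log2 effect at late 2-cell minus that at early 2-cell. In the alpha ring the difference was -2.01 for Psma3, -1.95 for Psma4, -1.44 for Psma6 and -0.99 for Psma2. In the beta ring it was -1.93 for Psmb1 and -1.65 for Psmb2, and 1.78 for Psmb3. Among the ATPases it was -2.0 for Psmc1, -1.75 for Psmc5 and -1.73 for Psmc2. Among the non-ATPases it was -2.53 for Psmd14, -2.21 for Psmd6, -1.78 for Psmd4, -1.73 for Psmd11, -1.14 for Psmd2, -1.08 for Psmd8, -1.07 for Psmd7 and -0.54 for Psmd3. Psmc3ip, which is no subunit, had the largest size at -4.34. Psmb8 was at 0 counts in both late 2-cell DMSO libraries, so only its adjusted p is given (0.00471).

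For 3 members the effect differed between zygotes and early 2-cell embryos by the same kind of test, and was lower at early 2-cell. The differences were -1.40 for Psmd12, -1.13 for Psmb1 and -0.67 for Psmc6. Psmb1 was thus flagged at both steps.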

How the results depend on the processing

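Counts of called members stayed within 1.5 times the reported ones in 213 of the 240 values recomputed under an alternative, and the others follow. Scaled to mitochondrial messages, members higher numbered 1 after late 2-cell A-485, 0 from zygote to early 2-cell, 1 for the A-485 effect at late against early 2-cell and 0 for A-485 against TSA, and members lower numbered 33, 8 and 22 for the A-485 effect at late against early 2-cell, at early 2-cell against zygote and against TSA. Scaled to total counts, members higher numbered 4 with TSA and 1 from zygote to early 2-cell. The counts over all genes under these scalings moved too and are given above. With no fold cutoff, members higher numbered 1 (early 2-cell A-485), 6 (late 2-cell A-485) and 6 (zygote to early 2-cell), and with a fold cutoff of 2, 1 had a higher A-485 than TSA effect. With equal numbers of the strongest peaks, 8 members had a promoter peak at early 2-cell with DMSO and 21 with A-485. Over all genes with an FPKM of at least 1, the shares were 10.9% and 28.6%.

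Without single libraries, members higher and lower ranged over 1 to 4 and 22 to 27 (late 2-cell A-485), 2 to 2 and 20 to 23 (TSA), 0 to 3 and 25 to 26 (zygote to early 2-cell), 18 to 20 and 6 to 8 (early to late 2-cell), 0 to 0 and 2 to 3 (early 2-cell A-485), 0 to 0 for both (zygote A-485), 1 to 3 and 15 to 19 (A-485 effect late against early), 0 to 1 and 1 to 4 (early against zygote) and 1 to 3 and 3 to 6 (A-485 against TSA). Fits that left 1 sample in an arm assume that it varies like the other group.

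Some log2 changes reversed. Scaled to mitochondrial messages, they were -0.69 (Psme3), -0.90 (Psme4) and -0.11 (Psmf1) after late 2-cell A-485, and -0.48 (Psmb6), -0.76 (Psme3), -0.31 (Psme4) and -0.31 (Psmb3) from zygote to early 2-cell. Scaled to total counts, they were 0.16 (Psme3) and 0.19 (Psme4) with TSA. These scalings shifted the median of all genes by -0.98, -1.33 and 0.36, which moves every gene alike.

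Samples of like number shared only the number, as their deviations correlated by -0.04 to 0.11 across comparisons. With that number as a replicate block, the A-485 effect was lower at early 2-cell than in zygotes in 5 members, early 2-cell A-485 had 3 members higher and 4 lower at any fold, and the other counts stayed within 1.5 times.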
